A study of Mus musculus with 2 samples.

Results

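Annexins are proteins that bind negatively charged phospholipids when calcium rises, and they act at membranes during vesicle traffic, membrane repair, inflammation and the clearance of dying cells. The genes described here are the 8 annexins Anxa1, Anxa2, Anxa3, Anxa4, Anxa5, Anxa6, Anxa7 and Anxa11, taken by their symbols from the 32285 genes counted in both single-cell libraries of mouse bone marrow. Their choice did not use a measured value. Annexin A1 is stored in neutrophils, is released on activation and limits inflammation through formyl peptide receptors. Annexin A2 forms a complex with S100A10 at the plasma membrane, annexin A5 binds phosphatidylserine on dying cells, and annexins A7 and A11 bind small EF-hand calcium sensors.

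The libraries compared marrow of mice on a C57BL/6 background, aged 13 to 14 weeks, in which the kinase gene Map4k4 was deleted with that of littermate controls. The cKO library came from Mx1-Cre mice with floxed Map4k4 alleles (Map4k4 f/f), and the Ctrl library from Mx1-Cre littermates that the methods write as Map4k4-/- and name control. Mx1-Cre is switched on by interferon, in all cells that respond to it, and the deletion was induced with poly I:C, a treatment the methods state for the floxed mice. In each library c-Kit+ progenitors were added back to marrow cells freed of red cells, so the shares of cell types are not those of the marrow. How many mice went into each library was not given in the sources used here.

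There was 1 library per genotype, of 71527701 UMIs over 10220 barcodes (Ctrl) and 64393950 UMIs over 6872 barcodes (cKO). A UMI stands for 1 captured RNA molecule, and these 3′ libraries count 1 end of each transcript, so levels here do not scale with transcript length. Of the barcodes, 8795 in Ctrl and 5347 in cKO held at least 1000 UMIs and passed the filters, with medians of 4940 and 8783 UMIs. Cells were placed in gates by the share of their UMIs on marker genes, and 383 and 146 of them met no gate. Levels are given as CPM, the UMIs of a gene per 1000000 UMIs of the cells or library summed. Map4k4 itself lay at 72.4 CPM (95% counting interval 70.5 to 74.4) in the library labelled Ctrl and at 64.2 CPM (62.3 to 66.2) in the library labelled cKO. These are totals over all barcodes, and the mix of cells differed between the libraries. Gene totals also do not show which exons the transcripts held. By RT-PCR the paper reports that Map4k4 transcript was lost in stem and progenitor cells after poly I:C. The libraries shared 3010 barcode strings, none of them with the same counts. With 1 library per genotype no test between genotypes can be made. Every interval covers counting error only. Differences between libraries can come from the mice, the preparation, the genotype or the poly I:C stated for the floxed mice, which cannot be told apart.

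The gates used below had their own markers in front. Cells were gated on these same markers, so this is no independent check of what the cells are. HSC/MPP-like cells (stem and multipotent progenitors) had 9 and 7 of their markers among their 10 leading genes in Ctrl and cKO, ProNeu-like cells (neutrophil progenitors, with primary granule genes) 7 and 7, mNeu-like cells (mature neutrophils) 6 and 6, and ProMon-like cells (monocyte progenitors) 8 and 6. Immature neutrophils (imNeu-like, with secondary granule genes) were split by cell cycle genes into a cycling and a non-cycling gate. These held 5 and 2 of the imNeu markers in front in Ctrl and 2 and 2 in cKO, and no other class compared had more. A list for neutrophil precursors (PreNeu, secondary granule genes together with cell cycle genes) was left out of that comparison. In cKO the leading genes of the cycling gate included Fcnb, Camp and Chil3 of that list, of which Fcnb is no imNeu marker. The cycling gate was thus not told apart from such precursors. MEP-like cells had 5 and 6 of theirs. The gates differed in cells between the libraries, from 1698 in Ctrl and 1307 in cKO for mNeu-like cells to 410 and 84 for MEP-like cells. Sums over all cells of a gate in 1 library were compared, and levels and their order are given for gates with at least 50 cells in that library unless a smaller gate is named.

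Anxa1 and Anxa2 carried most annexin RNA and took different courses through neutrophil maturation, so the 250 bases before their RefSeq start sites (GRCm38.p6) are shown, 5′ to 3′ on the gene's strand. The Anxa1 stretch lies at chr19:20390672-20390921 on the minus strand, inside the span that GENCODE gives the gene (chr19:20373428-20390944), since the longest GENCODE model starts farther upstream. The Anxa2 stretch lies at chr9:69453433-69453682 on the plus strand, and its end overlaps the start of the GENCODE span (chr9:69453620-69491795). Capitals mark every match, on either strand, to 6 short motifs. The C/EBP motif was searched as TTGCNNAA, the PU.1 motif as GAGGAAGT and the STAT motif as TTCNNNGAA. The AP-1 motif was searched as TGANTCA, which no other match overlapped. For the GC box the letters were GGGCGG. For the TATA box they were TATAAA.
Anxa1: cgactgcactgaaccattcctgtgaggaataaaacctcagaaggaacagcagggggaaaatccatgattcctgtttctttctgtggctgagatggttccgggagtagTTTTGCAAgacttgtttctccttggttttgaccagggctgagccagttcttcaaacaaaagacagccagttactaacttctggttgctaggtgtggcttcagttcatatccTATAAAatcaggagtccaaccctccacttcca
Anxa2: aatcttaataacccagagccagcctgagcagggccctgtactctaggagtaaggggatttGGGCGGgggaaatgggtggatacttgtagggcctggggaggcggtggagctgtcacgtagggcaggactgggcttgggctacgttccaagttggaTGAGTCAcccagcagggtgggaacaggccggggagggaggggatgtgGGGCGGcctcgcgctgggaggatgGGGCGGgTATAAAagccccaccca

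Both stretches held a TATA box, which 12.4% of 32851 promoters of this length held. The Anxa1 stretch had a C/EBP match 143 to 136 bases before the start, a motif found in 9.56% of promoters, and no GC box. The Anxa2 stretch had an AP-1 match 95 to 89 bases before the start, found in 6.75% of promoters, and 3 GC boxes, a motif in 32.7%. Neither held the PU.1 letters (2.44% of promoters) or the STAT letters (7.02%). A match is a run of letters and not a bound site. Of the 8 annexins, 6 had a promoter in the RefSeq table. A promoter of Anxa4 also held a C/EBP match, 208 to 201 bases before its start, and those of Anxa7 and Anxa11 held GC boxes.

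Among the gates of at least 50 cells the annexins fell into 3 kinds by where their RNA lay. Anxa1, Anxa2 and Anxa11 were highest in the later neutrophil gates, Anxa3 was spread over all 4 neutrophil gates, and Anxa4, Anxa5 and Anxa6 were highest outside the neutrophils, in monocyte, stem or lymphoid gates. Anxa7 varied least, with 3.46-fold between its highest and lowest gate in Ctrl and 2.92-fold in cKO. The 4 neutrophil gates held 61.2% of all UMIs of the Ctrl cells and 82.5% of those of the cKO cells. They held 93.6% and 98.2% of the Anxa1 UMIs, but 29.8% and 38.6% of the Anxa6 UMIs and 27.7% and 38.8% of the Anxa4 UMIs. Levels of the 8 genes in the 20 gate sums of at least 50 cells are drawn in the map of CPM values.

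**Figure D1:**
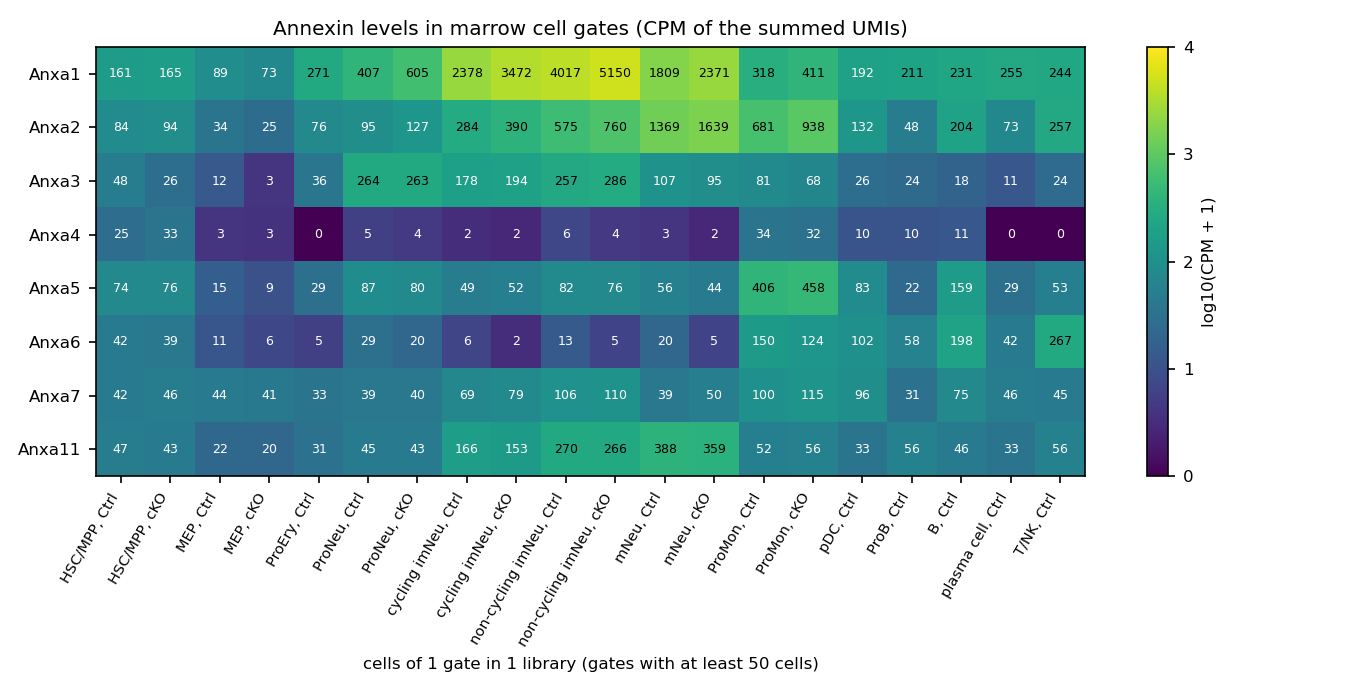
CPM of the 8 annexins (rows) in each gate and library with at least 50 cells (columns), with the colour on a log10(CPM + 1) scale and the CPM printed in each cell. Anxa1 reached 4017 CPM in non-cycling imNeu-like cells of Ctrl and 5150 CPM in those of cKO, whereas Anxa6 was highest in T/NK-like cells of Ctrl at 267 CPM.

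Anxa1 (chromosome 19) was the most abundant annexin in the immature neutrophil gates. In Ctrl its level was 161 CPM in HSC/MPP-like, 407 CPM in ProNeu-like, 2378 CPM in cycling imNeu-like, 4017 CPM in non-cycling imNeu-like and 1809 CPM in mNeu-like cells. The same order held in cKO, at 165, 605, 3472, 5150 and 2371 CPM. It was thus highest just before the last gate in both libraries, 2.22-fold above mNeu-like cells in Ctrl and 2.17-fold in cKO, and no intervals of neighbouring neutrophil gates overlapped. Of the other gates this large, ProMon-like cells were highest at 318 and 411 CPM, and the interval in Ctrl overlapped that of ProEry-like cells. ProEry-like, plasma-like, T/NK-like, B-like, ProB-like and pDC-like cells of Ctrl lay between 192 and 271 CPM, each with an interval that overlapped that of the next in order. MEP-like cells had 89.5 CPM. Free RNA was not measured here, and its part in the levels outside the neutrophils was not tested.

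Anxa2 (chromosome 9), which links membranes to actin and, with S100A10, binds plasminogen, increased through every neutrophil gate. Its level was 94.6 CPM in ProNeu-like, 285 CPM in cycling imNeu-like, 575 CPM in non-cycling imNeu-like and 1369 CPM in mNeu-like cells of Ctrl. In cKO these levels were 127, 390, 760 and 1639 CPM. The mNeu-like sum was 2.38-fold above the non-cycling imNeu-like sum in Ctrl and 2.16-fold in cKO, where Anxa1 went the other way. ProMon-like cells held the second highest Anxa2 level, 681 CPM in Ctrl and 938 CPM in cKO, above their Anxa1. T/NK-like and B-like cells of Ctrl had 257 and 204 CPM with overlapping intervals, above the 76.2 CPM of ProEry-like and the 72.5 CPM of plasma-like cells.

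Anxa11 (chromosome 14, 25842156 to 25886804), whose product binds S100A6 and PDCD6, followed Anxa2 in order at lower levels. It was at 44.8, 166, 270.3 and 388 CPM from ProNeu-like to mNeu-like cells of Ctrl and at 43.0, 153, 266 and 359 CPM in cKO. Non-neutrophil gates of at least 50 cells in Ctrl lay between 21.5 CPM (MEP-like) and 55.8 CPM (ProB-like), and neighbours in this order had overlapping intervals. An antisense gene, Anxa11os, lies within its span and had 23 UMIs in the Ctrl cells and 40 in the cKO cells, against 7962 and 9905 for Anxa11. Whether strand was used in counting was not given in the sources used here.

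Anxa7 (chromosome 14, 20455260 to 20480133), a membrane fusion protein that binds sorcin, was highest in non-cycling imNeu-like and ProMon-like cells. Its level was 39.1 CPM in ProNeu-like, 69.4 CPM in cycling imNeu-like, 106 CPM in non-cycling imNeu-like and 38.8 CPM in mNeu-like cells of Ctrl, and 39.6, 79.4, 110 and 50.3 CPM in cKO. ProMon-like cells held 100.1 and 115 CPM. The intervals of non-cycling imNeu-like, ProMon-like, pDC-like and B-like cells of Ctrl overlapped along the order. Its course was close to that of Anxa1 in that it peaked in the non-cycling immature gate, but over a far smaller range.

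Anxa3 (chromosome 5), whose protein is found on neutrophil granules, was present from the first neutrophil gate on. ProNeu-like cells held 264 CPM in Ctrl and 263 CPM in cKO, 5.50-fold and 9.98-fold above HSC/MPP-like cells of the same library. It dipped in cycling imNeu-like cells (178 and 194 CPM), returned in non-cycling imNeu-like cells (257 and 286 CPM) and was lowest of the neutrophil gates in mNeu-like cells (107 and 95.1 CPM). In Ctrl the ProNeu-like and non-cycling imNeu-like intervals overlapped, so those levels did not differ beyond counting error. MEP-like cells had 89 Anxa3 UMIs in Ctrl and 9 in cKO.

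Anxa5 (chromosome 3) had its highest level in ProMon-like cells among gates of at least 50 cells. The 4 neutrophil gates still held 48.3% of its UMIs in Ctrl and 61.7% in cKO, against 61.2% and 82.5% of all UMIs. Annexin V staining for dying cells uses added protein and is separate from this RNA. ProMon-like cells had 407 CPM in Ctrl and 458 CPM in cKO. Among gates this large in Ctrl the B-like cells followed at 159 CPM, and the neutrophil gates lay between 48.8 CPM (cycling imNeu-like) and 86.8 CPM (ProNeu-like). mNeu-like cells had 56.3 CPM in Ctrl and 44.2 CPM in cKO.

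Anxa6 (chromosome 11), the annexin with a duplicated core, was highest in T/NK-like (267 CPM) and B-like cells (198 CPM) of Ctrl, whose intervals overlapped, and was at 150 CPM in ProMon-like cells. Neutrophil gates lay in the lower part of this order in Ctrl, together with MEP-like (10.9 CPM) and ProEry-like cells (4.76 CPM, the lowest). Anxa6 had 28.9 CPM in ProNeu-like, 5.78 CPM in cycling imNeu-like, 12.7 CPM in non-cycling imNeu-like and 20.3 CPM in mNeu-like cells of Ctrl.

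Anxa4 (chromosome 6), an annexin of epithelial and secretory cells, was the scarcest of the 8. In gates of at least 50 cells it reached 33.8 CPM in ProMon-like and 25.4 CPM in HSC/MPP-like cells of Ctrl, with overlapping intervals, and 31.7 and 33.2 CPM in cKO. The 4 neutrophil gates together held 172 Anxa4 UMIs in Ctrl and 147 in cKO. Gates of fewer than 50 cells held some of the highest levels outside the neutrophils. Basophil or mast cell-like cells (35 in Ctrl, 14 in cKO) had 1030 CPM of Anxa1 in Ctrl (919 to 1151) and 952 CPM in cKO (798 to 1126), above ProMon-like cells in both. Macrophage-like cells (38 and 12) had 172 CPM of Anxa4 in Ctrl (94.0 to 289, from 14 UMIs), above every larger gate, and 117 CPM in cKO from 3 UMIs. Their Anxa5 was at 307 CPM in Ctrl (199 to 453) and 1016 CPM in cKO (664 to 1488). For Anxa11 the basophil or mast cell-like cells had 72.6 CPM and the macrophage-like cells 61.4 CPM in Ctrl, from 22 and 5 UMIs.

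Of the remaining annexin genes in the annotation, Anxa9 had 295 and 149 UMIs in all cells of Ctrl and cKO, and Anxa8, Anxa10 and Anxa13 had 0 in both, which allows up to 0.0426 CPM in Ctrl and 0.0474 CPM in cKO (3 UMIs).

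To follow the genes within the gates, all neutrophil cells of both libraries were ordered by their neutrophil marker UMIs without any annexin and cut into 10 bins of equal size. The order first fixed used the share of mNeu markers alone. It left ProNeu-like and cycling imNeu-like cells mixed in its lowest bins (25.0% and 60.4% of bin 2 in Ctrl). A second order, chosen after seeing this, counted imNeu markers once and mNeu markers with double weight, and its bin 1 held ProNeu-like cells alone in both libraries. Along it Anxa1 climbed from 365 CPM in bin 1 to 4170 CPM in bin 6 and came down to 1360 CPM in bin 10 in Ctrl. In cKO the course was 452, 5468 and 1532 CPM at the same bins.

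Anxa2 did not turn back along this order. It was at 71.5 CPM in bin 1, 583 CPM in bin 6 and 1481 CPM in bin 10 of Ctrl, and at 100.4, 726 and 1795 CPM in cKO. Anxa1 RNA thus led Anxa2 RNA up to bin 9 in Ctrl (1580 against 1462 CPM) and was below it in bin 10, while in cKO the change of order also fell between bin 9 (2338 against 1703 CPM) and bin 10. Anxa11 levelled off from bin 8 in Ctrl (387 CPM, against 395 CPM in bin 10). Anxa3 had a first maximum in bin 1 (272 and 267 CPM), a low in bin 4 (170 and 174 CPM) and another maximum in bins 6 and 7, before it dropped to 49.5 and 40.8 CPM in bin 10. Anxa5 had the same double course at lower levels, with 87.9 and 80.9 CPM in bin 1, 46.9 and 48.0 CPM in bin 4, and 90.3 and 86.9 CPM in bin 7.

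**Figure D2:**
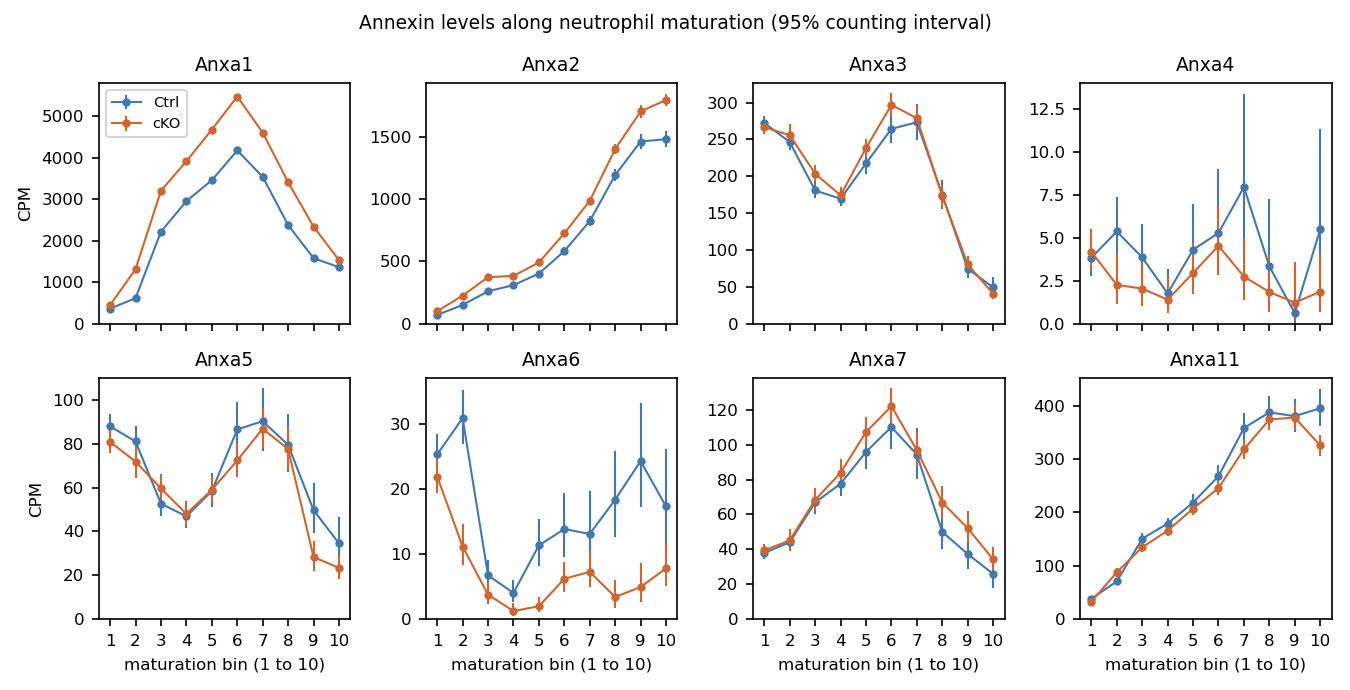
CPM of each annexin (vertical axis, from 0) in 10 equal bins of neutrophil cells ordered by imNeu and mNeu markers (horizontal axis), for Ctrl and cKO, with 95% counting intervals. Anxa1 peaks in bin 6 at 4170 and 5468 CPM, whereas Anxa2 is highest in bin 10 at 1481 and 1795 CPM.

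At the level of single cells, every cell was thinned to 1000 UMIs, so that equally many UMIs were read from each. Anxa1 was then detected in 28.5% of ProNeu-like, 86.8% of cycling imNeu-like, 95.3% of non-cycling imNeu-like and 72.9% of mNeu-like cells of Ctrl. The shares in cKO were 44.9%, 90.9%, 95.9% and 81.6%. Outside the neutrophil gates the thinned shares of Ctrl included 16.0% in ProEry-like, 16.7% in plasma-like, 20.8% in B-like and 22.1% in ProB-like cells. They also included 22.4% in pDC-like and 25.5% (17.6 to 34.7) in T/NK-like cells. Median depths of these gates were 2245 to 7476 UMIs, against 2370 in mNeu-like cells. How much of this Anxa1 was the cells' own RNA was not tested. The ProNeu-like share of Ctrl (25.7 to 31.4) overlapped the upper end of the range of these gates and was not told apart from it. The imNeu-like and mNeu-like shares lay above that range. Before thinning the mNeu-like shares were 87.6% in Ctrl and 98.2% in cKO, where cells had a median of 6145 UMIs. Anxa2 was detected in 6.17% of ProEry-like and 24.55% of T/NK-like cells of Ctrl, and in 50% of ProMon-like cells of Ctrl and 61.2% of those of cKO. In mNeu-like cells its share was 73.5% in Ctrl (exact binomial 95% interval 71.3 to 75.6) and 77.2% in cKO (74.8 to 79.5). These intervals overlapped, and the Anxa1 intervals of mNeu-like cells (70.7 to 75.0 and 79.4 to 83.7) did not. Thinning leaves the cKO cells the deeper ones before it, and Anxa1 CPM increased with depth among mNeu-like cells (given below). The thinned shares are therefore not free of the depth difference.

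Most mNeu-like cells held both RNAs. After thinning 52.9% of them showed Anxa1 and Anxa2 in Ctrl and 63.3% in cKO, and 20.6% and 13.9% showed Anxa2 alone. In non-cycling imNeu-like cells, in contrast, 52.8% and 45.0% showed Anxa1 alone and 1.71% and 1.51% Anxa2 alone. Anxa6 was detected in 2.24% of mNeu-like cells in Ctrl and 0.459% in cKO. Over the 7 gates compared between the libraries and the 8 genes, thinned shares were higher in cKO with intervals apart for 6 of 56 pairs, against 1.19% of 79772 pairs over all genes, and lower for 3 of 56, against 3.54%. These shares depend on level, since a gene far scarcer than Anxa1 is seldom seen at 1000 UMIs.

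The step from non-cycling imNeu-like to mNeu-like cells separated the annexins. A gene was counted as past the threshold when the sums differed by 1.5-fold or more and held at least 10 UMIs together. In Ctrl 2 of 8 annexins (Anxa2 and Anxa6) were higher in mNeu-like cells by this rule, against 21.7% of 10873 genes, and 4 of 8 (Anxa1, Anxa3, Anxa4 and Anxa7) were lower, against 19.5%. In cKO 1 of 8 (Anxa2) was higher, against 21.0% of 10587 genes, and 5 of 8 (the same 4 and Anxa5) were lower, against 27.1%. The median log2 ratio of the 8 annexins was -0.79 in Ctrl and -0.93 in cKO, where that of all genes was 0.01 and -0.05. The log2 ratio of Anxa3 was -1.27 (-1.41 to -1.12) in Ctrl and -1.59 (-1.70 to -1.48) in cKO, and that of Anxa7 was -1.45 (-1.69 to -1.21) and -1.13 (-1.29 to -0.97). Anxa11 was 1.43-fold and 1.35-fold higher in mNeu-like cells, short of the threshold. The differences between the libraries in these steps were not tested.

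Between the libraries, neutrophil and monocyte cells of cKO had higher Anxa1 and Anxa2 levels in CPM than those of Ctrl, but no annexin was past 1.5-fold upward in any of the 7 gates with at least 50 cells in both. The highest ratio was that of Anxa1 in ProNeu-like cells, 407 CPM in Ctrl and 605 CPM in cKO (1.49-fold). The median gene lay on the other side in every gate. The 10 most abundant genes held 38.2% of the mNeu-like UMIs in Ctrl and 44.6% in cKO. The median log2 ratio of well counted genes, which median-of-ratios scaling sets to 0, was -0.11 in HSC/MPP-like, -0.16 in MEP-like, -0.29 in ProNeu-like, -0.35 in cycling imNeu-like, -0.42 in non-cycling imNeu-like, -0.44 in mNeu-like and -0.19 in ProMon-like cells. Ratios are given first as CPM ratios and then relative to these medians.

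In mNeu-like cells 0 of 8 annexins were higher in cKO by 1.5-fold or more, against 3.46% of genes, and 2 of 8 (Anxa4 and Anxa6) were lower, against 45.3%. Non-cycling imNeu-like cells had 0 higher (2.64% of genes) and the same 2 lower (40.9%). For cycling imNeu-like cells the counts were 0 (2.67%) and 1, Anxa6 (30.6%). ProNeu-like cells had 0 higher (3.11%) and 0 lower (23.1%), and ProMon-like cells likewise 0 (5.25%) and 0 (23.2%). Among progenitors, HSC/MPP-like cells had 0 higher (7.73%) and 1 lower, Anxa3 (15.1%), and MEP-like cells 0 higher (7.05%) and 3 lower, Anxa3, Anxa5 and Anxa6 (23.6%). In all, 0 of 56 gate and gene pairs were past the threshold upward and 9 downward. Relative to the median gene the split was 10 upward and 7 downward, and all genes were then past the threshold in 7.93% to 12.1% (higher) and 9.20% to 24.3% (lower) across the gates. The 10 were Anxa1 and Anxa2 in the 4 neutrophil gates, Anxa7 in mNeu-like cells and Anxa2 in ProMon-like cells.

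Anxa1 in mNeu-like cells was at 1809 CPM in Ctrl and 2371 CPM in cKO, a log2 ratio of 0.39 (0.35 to 0.43) and of 0.83 relative to the median gene. In cycling and non-cycling imNeu-like cells the log2 ratios were 0.55 (0.53 to 0.57) and 0.36 (0.34 to 0.38), and 0.90 and 0.78 relative to the median gene. Anxa2 had log2 ratios of 0.42, 0.46, 0.40 and 0.26 from ProNeu-like to mNeu-like cells and 0.46 (0.39 to 0.53) in ProMon-like cells. In the progenitor gates neither gene showed this: HSC/MPP-like Anxa1 was at 161 and 165 CPM, and MEP-like Anxa1 and Anxa2 were lower in cKO, at 89.5 and 72.8 CPM and at 34.2 and 24.7 CPM (log2 ratios of -0.30 and -0.47, and -0.14 and -0.31 relative to the median gene). Markers of mature neutrophils moved with these ratios: the 12 mNeu markers summed to 650 CPM in Ctrl and 768 CPM in cKO in ProNeu-like cells (5 of 12 lower in cKO), 1181 and 1541 CPM in cycling imNeu-like (2 of 12 lower), 8521 and 12105 CPM in non-cycling imNeu-like (2 of 12) and 48207 and 58090 CPM in mNeu-like cells (3 of 12). Their part in the Anxa1 and Anxa2 ratios was not tested beyond the values at matched maturation given next.

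**Figure D3:**
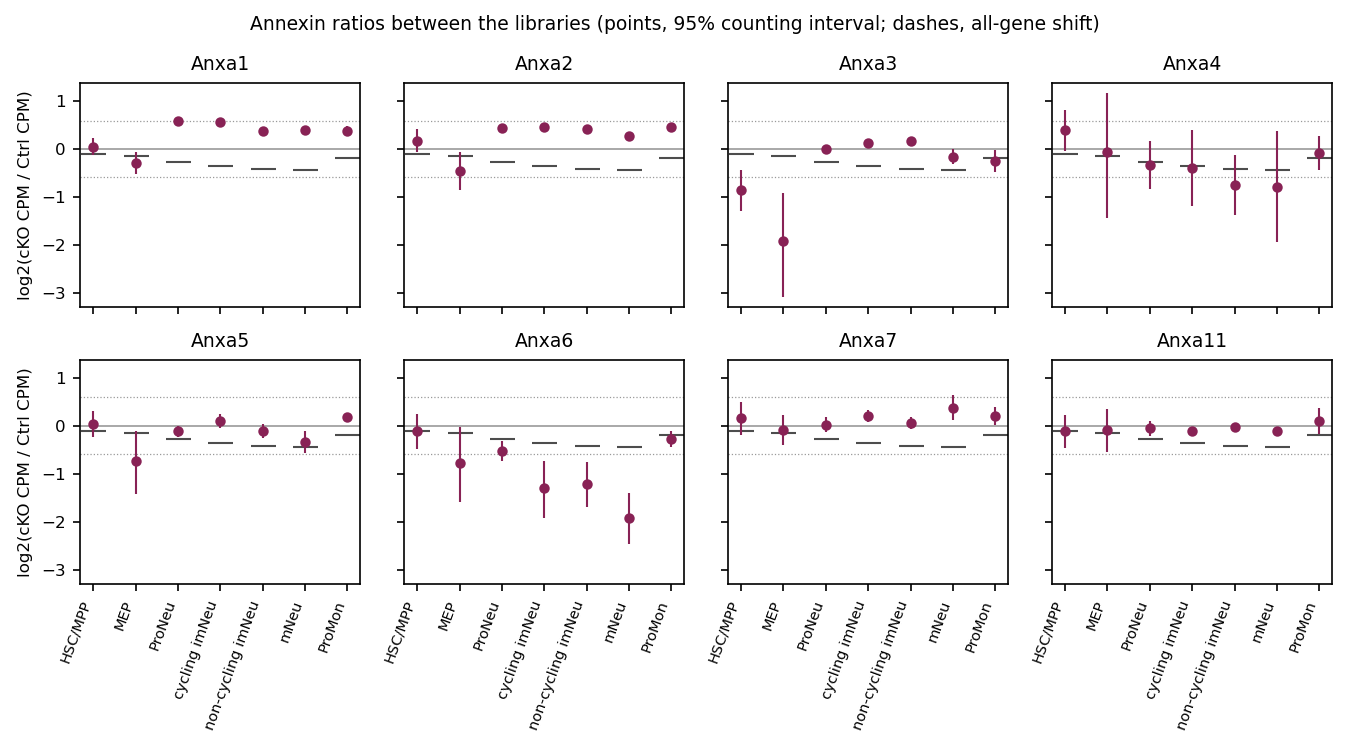
Log2 ratio of cKO over Ctrl CPM for each annexin (panels) in the 7 gates with at least 50 cells in both libraries, with 95% counting intervals, the 1.5-fold threshold as dotted lines and the median shift of well counted genes as dashes. Anxa1 and Anxa2 lie above 0 in the 4 neutrophil gates and ProMon, and Anxa6 falls to -1.92 in mNeu.

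The Anxa1 difference depended on which cells were set against each other. Depth per cell was higher in cKO, and among mNeu-like cells Anxa1 increased with depth in both libraries. In mNeu-like cells of 1000 to under 2000 UMIs Anxa1 was at 1199 CPM in Ctrl and 1361 CPM in cKO, in those of 2000 to under 4000 UMIs at 1699 and 1589 CPM, and in those of 4000 to under 8000 UMIs at 2376 and 1927 CPM. Ctrl was thus higher in 2 of the 3 bins, and with these bins weighted equally the log2 ratio was -0.11. Left out were mNeu-like cells of 8000 UMIs or more, since a bin needed at least 20 cells in both libraries. All mNeu-like cells of cKO together were at 2371 CPM, above the cKO level in each of these bins. Non-cycling imNeu-like cells had more Anxa1 in Ctrl under 4000 UMIs (3837 against 3189 CPM from 2000 UMIs) and more in cKO above (4199 against 5246 CPM from 8000 UMIs). In ProNeu-like cells the gap was widest in the shallowest bin, at 471 CPM in 53 Ctrl cells and 1814 CPM in 145 cKO cells, and from 16000 UMIs it was 391 against 586 CPM. In ProNeu-like cells of 4000 to under 8000 UMIs Anxa1 was at 370 CPM in Ctrl and 340 CPM in cKO, and the interval of the ratio held 0. Cycling imNeu-like cells of 2000 to under 4000 UMIs had more in Ctrl (2624 against 1786 CPM), and those of the other bins more in cKO.

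Anxa2 took the opposite course in mNeu-like cells, higher in Ctrl in the shallowest bin and in cKO in the deeper ones. It was at 1484 CPM in Ctrl and 1081 CPM in cKO (68 cells) from 1000 UMIs, at 1422 and 1728 CPM from 2000 UMIs, and at 1220 and 1679 CPM from 4000 UMIs. Matched along maturation instead, in the 10 bins of the second order, both Anxa1 and Anxa2 were higher in cKO in 10 of 10 bins. So was Anxa7, while Anxa6 was higher in cKO in 0 of 10. The bins hold cells of the same libraries and are not replicates. With these bins weighted equally the log2 ratio was 0.45 for Anxa1 and 0.28 for Anxa2, where the neutrophil cells pooled gave 0.65 and 0.69. The part of depth in the Anxa1 difference of mNeu-like cells cannot be told apart from that of genotype with 1 library each.

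**Figure D4:**
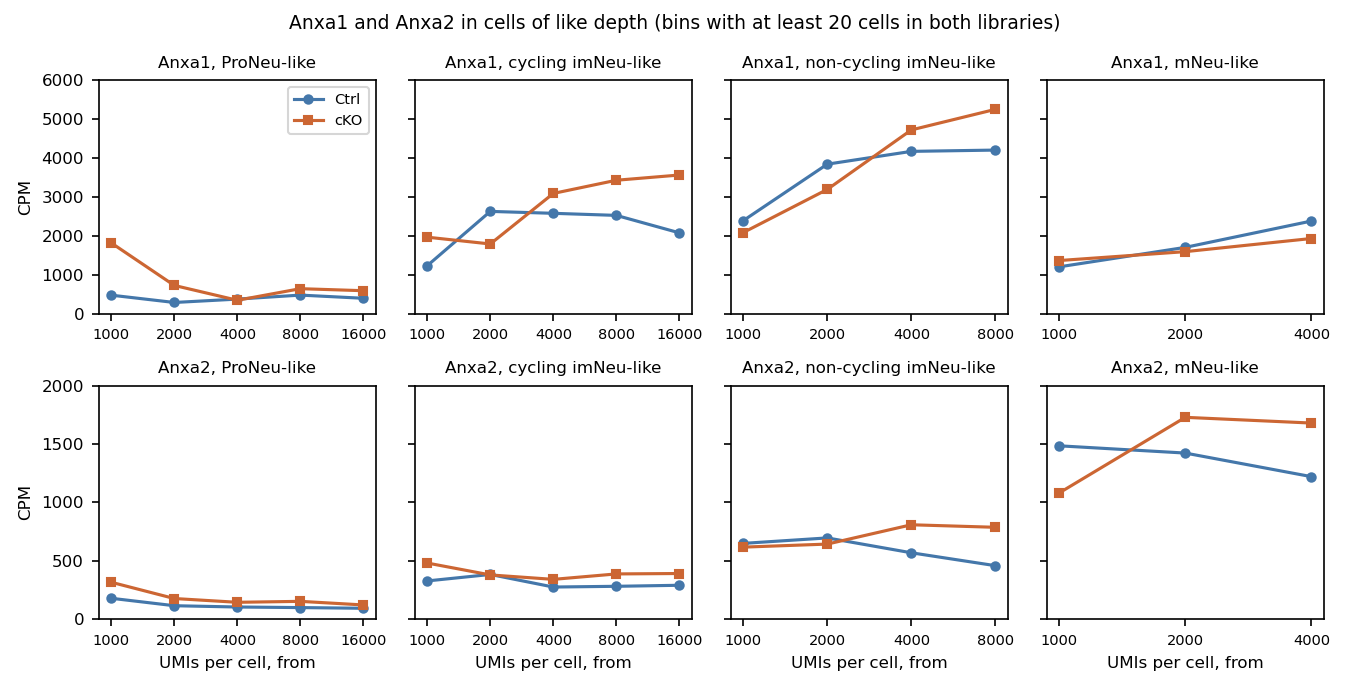
CPM of Anxa1 (top) and Anxa2 (bottom) against UMIs per cell (lower edge of each bin, log axis) in the 4 neutrophil gates, for Ctrl and cKO, in bins with at least 20 cells in both libraries. In mNeu-like cells Anxa1 of Ctrl passes that of cKO from 2000 UMIs on (1699 against 1589 CPM), while Anxa2 is higher in cKO there (1728 against 1422 CPM).

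Anxa6 had a CPM log2 ratio below 0 in every gate compared, and the lowest ratios were in the later neutrophil gates. It had 83 and 36 UMIs (5.78 and 2.33 CPM) in cycling imNeu-like, 90 and 68 UMIs (12.7 and 5.44 CPM) in non-cycling imNeu-like and 94 and 46 UMIs (20.3 and 5.35 CPM) in mNeu-like cells, with log2 ratios of -1.31, -1.22 and -1.92 (-2.46 to -1.40), or -0.96, -0.80 and -1.49 relative to the median gene. These are low levels in a gene whose RNA lies mostly in other cells, and markers of those and of further cell types moved the same way. In mNeu-like cells the 12 B markers summed to 196 CPM in Ctrl and 16.5 CPM in cKO with 12 of 12 lower in cKO, and Ms4a1 and Cd22 at 0 there. The 12 ProB markers summed to 82.0 and 2.21 CPM (12 of 12 lower, Il7r, Ebf1, Dntt, Rag1, Lef1 and Blnk at 0 in cKO), the 13 T/NK markers to 16.4 and 3.02 CPM (11 of 13 lower, Trbc1, Lck, Thy1 and Klrk1 at 0 in cKO) and the 12 ProMon markers to 471 and 286 CPM (11 of 12 lower). The fall was not limited to cell types high in Anxa6. The 12 ProEry markers summed to 690 and 57.3 CPM in mNeu-like cells (12 of 12 lower), with Anxa6 at 4.76 CPM in ProEry-like cells of Ctrl. Plasma cell markers summed to 1728 and 332 CPM there (10 of 10 lower), and HSC/MPP markers to 85.9 and 17.9 CPM (13 of 13 lower). The B markers summed to 151 and 23.1 CPM in non-cycling imNeu-like cells and to 89.0 and 20.9 CPM in cycling ones, each with 12 of 12 lower. Their part in the Anxa6 result was not tested. In the cells without a single UMI of the B, ProB and T/NK markers, a selection made after seeing the data, the log2 ratio of Anxa6 was -1.77 in mNeu-like, -0.98 in non-cycling imNeu-like and -1.12 in cycling imNeu-like cells. In cycling imNeu-like cells the direction turned with cells thinned to 1000 UMIs (1.08, from 6 Ctrl and 10 cKO cells with a UMI). It also turned with the mean of per-cell proportions (0.30) and with bins of like depth (0.19). Of these bins, those from 1000 and 2000 UMIs were at 0.64 and 1.89, with intervals that held 0. Those from 8000 and 16000 UMIs were at -1.84 and -1.85, with intervals below 0, and from 4000 UMIs cKO had no Anxa6 UMI. In mNeu-like cells the direction stayed negative in 14 of 14 alternatives. By depth it was at -2.26 from 2000 UMIs and -0.66 (-1.59 to 0.31) from 4000 UMIs, and from 1000 UMIs cKO had no Anxa6 UMI. In ProMon-like cells Anxa6 was at 150 and 124 CPM.

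The remaining ratios outside the neutrophils included low counts. Anxa3 in MEP-like cells had a log2 ratio of -1.91 (-3.09 to -0.92) and Anxa5 there one of -0.75 (-1.43 to -0.11), from 110 and 25 UMIs. Anxa3 in HSC/MPP-like cells was at 48.0 CPM in Ctrl and 26.4 CPM in cKO (325 and 54 UMIs), a log2 ratio of -0.86 (-1.31 to -0.45) that turned to 0.43 with cells thinned to 1000 UMIs, while in the neutrophil gates its log2 ratios ran from -0.17 to 0.16. Anxa11 was within 0.12 of 0 on the log2 scale in all 7 gates as a CPM ratio, and it was lower in cKO in 9 of the 10 maturation bins. Its thinned share of cells with a UMI was lower in cKO in both imNeu-like gates, with intervals apart. The share was 16.5% in Ctrl and 12.1% in cKO in cycling cells, and 26.0% and 20.5% in non-cycling ones. In the other gates compared the intervals of this share overlapped. Anxa7 in mNeu-like cells was at 38.8 and 50.3 CPM, a log2 ratio of 0.37 (0.12 to 0.63). Anxa5 was at 56.3 and 44.2 CPM in mNeu-like cells and at 407 and 458 CPM in ProMon-like cells. Relative to the median gene, Anxa3, Anxa5 and Anxa11 were on the upper side in mNeu-like cells, at 0.27, 0.09 and 0.33. In bins of like depth from 2000 and 4000 UMIs, Anxa3 had CPM log2 ratios of -0.95 (-1.49 to -0.45) and -1.03 (-1.31 to -0.75). Anxa5 was there at -0.78 (-1.48 to -0.14) and -1.25 (-1.67 to -0.84). From 1000 UMIs they were at -0.22 and 0.60, with intervals that held 0. Anxa11 was at -1.05, -0.16 (interval holding 0) and -0.30 from 1000, 2000 and 4000 UMIs. The deepest mNeu-like cells were left out of these bins. Anxa4 in mNeu-like cells rested on 14 and 15 UMIs. In non-cycling imNeu-like cells its log2 ratio of -0.75 turned to 0.12 with thinning, from 6 cells with a UMI in Ctrl and 6 in cKO.

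Among the RNAs of proteins that annexins work with, S100a11, S100a6 and the sorcin gene Sri were abundant in mNeu-like cells. S100a10, the main partner of Anxa2, was low there. Pdcd6, a partner of annexins A7 and A11, was at 100.2 CPM in Ctrl and 109.7 CPM in cKO in ProNeu-like cells. It was lower in mNeu-like cells, at 56.5 and 69.8 CPM. S100a10 was at 839 CPM in Ctrl and 1188 CPM in cKO in ProMon-like cells. In mNeu-like cells, with Anxa2 at 1369 and 1639 CPM, S100a10 was at 21.1 and 12.4 CPM. S100a11, a partner of annexin A1, was at 5370 and 7058 CPM in mNeu-like cells, and S100a6, a partner of annexin A11, at 9894 and 14001 CPM. In non-cycling imNeu-like cells S100a6 was at 2458 CPM in Ctrl and 4958 CPM in cKO (log2 ratio 1.01), and S100a10 at 14.9 and 7.35 CPM (-1.02). From non-cycling imNeu-like to mNeu-like cells 2 of the 4 S100 genes were past 1.5-fold upward in Ctrl (21.7% of all genes) and 4 of 4 in cKO (21.0%). S100a10 was short of it in Ctrl at a log2 ratio of 0.50 and past it in cKO at 0.76, and S100a4, named after its values were seen, was at 0.51 and 0.85.

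The formyl peptide receptors through which annexin A1 acts came late in the order. Fpr1 was at 2.59, 9.20, 82.3 and 320 CPM from ProNeu-like to mNeu-like cells of Ctrl and at 3.45, 10.4, 118 and 380 CPM in cKO. Fpr2 was at 589 CPM both in non-cycling imNeu-like and in mNeu-like cells of Ctrl and at 495 and 439 CPM in cKO. From non-cycling imNeu-like to mNeu-like cells Fpr1 was thus 1.96 higher on the log2 scale in Ctrl and 1.68 in cKO, where Anxa1 was 1.15 and 1.12 lower. Fpr-rs3 and Fpr-rs4, the other receptors listed, had no UMI in mNeu-like cells of either library.

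Counted by list in mNeu-like cells, the lists gave the following genes past 1.5-fold between the libraries, to be read against the shares of all genes above. Of the receptors 2 of 4 had enough UMIs and none was past the threshold, and of the 4 S100 genes 1 (S100a10, log2 ratio -0.77) was lower. Of 5 EF-hand partners of annexins A7 and A11 (Pdcd6, Pef1, Sri, Capn1 and Capns1) 1 was higher, the sorcin gene Sri at 327 and 537 CPM. Of 8 scramblases and flippases, which move phosphatidylserine across the membrane, 1 was higher (Plscr1, 24.8 and 50.7 CPM) and 2 were lower (Ano6 and Plscr3, both under 13 CPM). Of 9 phosphatidylserine receptors and bridging proteins 3 had enough UMIs, and Cd300lf, an inhibitory receptor of myeloid cells, was the main one at 420 and 394 CPM, while 1 was lower (Mfge8, with 7 and 5 UMIs). Of 4 other partners Ahnak alone had enough UMIs and was lower (22.0 and 6.97 CPM), the phospholipase A2 gene Pla2g4a was lower (19.0 and 9.88 CPM), and of 4 other annexins Anxa9 alone had enough UMIs (4 and 10) and was not past the threshold. Fpr-rs3, Fpr-rs4, Ano6, Plscr3, Mfge8, Ahnak, Pla2g4a and the additional annexin genes were named after their values were seen. Relative to the median gene the calls shifted: Fpr1 (0.68), S100a11 (0.83), S100a6 (0.94), Pdcd6 (0.74), Pef1 (0.64), Atp11a (0.69) and Anxa9 (0.87) were then past 1.5-fold upward beside Sri and Plscr1. S100a10 (-0.33), Ano6 (-0.38), Plscr3 (-0.57) and Pla2g4a (-0.51) were no longer past it downward, which left Ahnak (-1.22) and Mfge8 (-0.94). Median log2 ratios of the lists in CPM ran from -1.66 (other partners, 1 gene) to 0.43 (other annexins, 1 gene), against -0.52 for all genes.

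**Figure D5:**
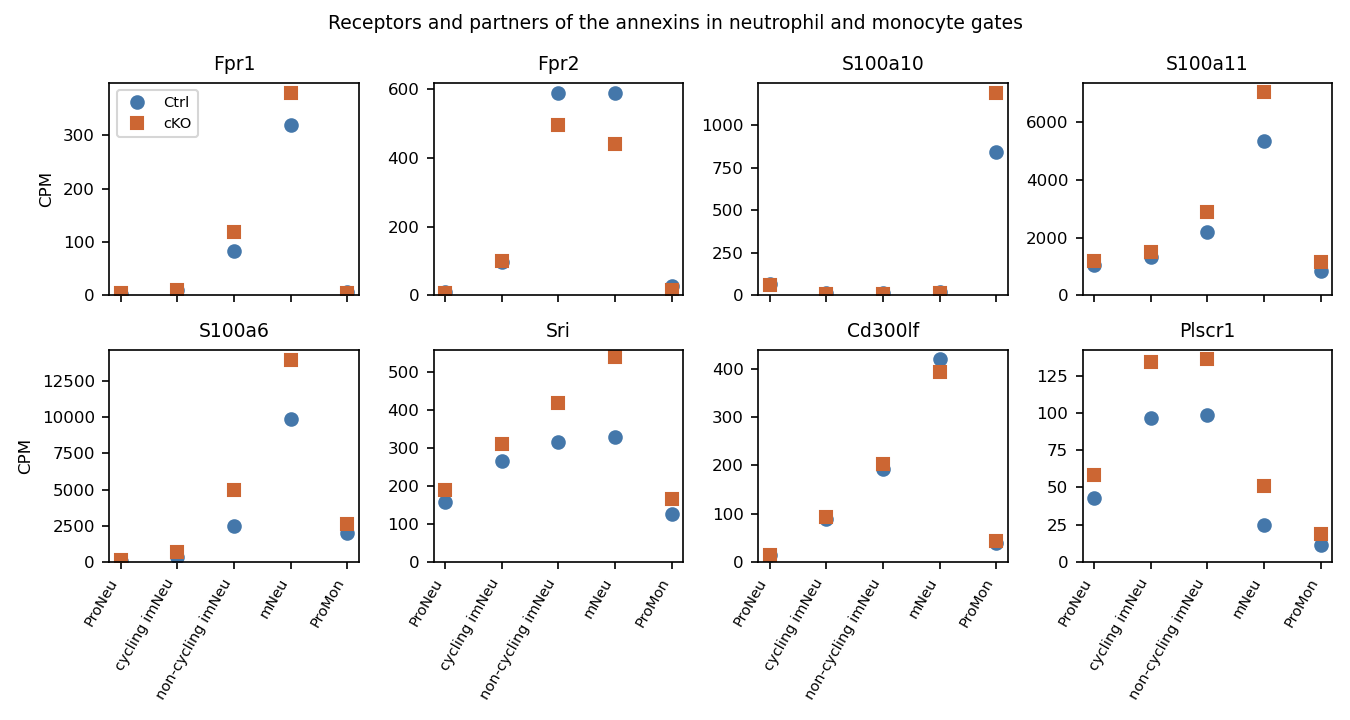
CPM of receptors and partners (panels) in the 4 neutrophil gates and ProMon for Ctrl (circles) and cKO (squares), each with its own axis from 0. S100a10 is high in ProMon (839 and 1188 CPM) and near 0 in mNeu (21.1 and 12.4 CPM), whereas Fpr1 and S100a6 are highest in mNeu.

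The genes with the most similar patterns over the 20 gate sums had their highest level in a neutrophil or monocyte gate for every member but Anxa6. With Pearson's r of log2(CPM + 10) among 6476 genes, as a description over sums that share libraries, Anxa1 was nearest to Wfdc21 (r = 0.97), Ltb4r1, a leukotriene B4 receptor (0.96), and B230208H11Rik (0.96). Anxa2 was nearest to Myo1f, a myosin of leukocytes (0.97), Fcer1g (0.96) and Slfn2 (0.95). Anxa3 was nearest to Dstn, an actin severing protein (0.97), F630028O10Rik (0.96) and Tcn2 (0.95). Anxa11 was nearest to Triobp (0.98), Padi4, the enzyme that citrullinates histones in neutrophils (0.96), and 9830107B12Rik (0.96). Anxa6 was nearest to the interferon-inducible genes Mndal (0.95) and Ifi203 (0.94) and to H2-M3 (0.95), all highest in B-like cells of Ctrl. Anxa5 was nearest to Ncstn (0.91) and Soat1 (0.89), Anxa4 to Nav1 (0.93), Bmpr2 (0.89) and Cpt1a (0.85), and Anxa7 to Ear2 (0.89), Ctsh (0.85) and Dnajb14 (0.84). Among the annexins themselves the highest r was that of Anxa1 with Anxa11 (0.92), followed by Anxa1 with Anxa3 (0.82) and Anxa2 with Anxa11 (0.82).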

How the data were processed

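Per the labels, bone marrow and c-Kit+ cells of 1 control and 1 Map4k4-cKO preparation were run on the BMKMANU DG1000 3′ single-cell platform. The deposited values are raw UMI counts per gene and barcode, which the authors made with Cell Ranger 5.0.0 on mm10, per the submitters' processing notes. Kept cells had 200 to 9000 genes, at most 30% mitochondrial UMIs and at least 1000 UMIs. A gate took a cell when its class markers (at least 3 detected) held a minimum percent of its UMIs. The highest ratio to that minimum decided, and annexins were not used. These minimums were set after marker shares were seen. No doublet caller was used. Doublets were handled by stricter gates as an alternative. Near the cut between imNeu and mNeu lay 119 of 4553 cells in Ctrl and 159 of 3751 in cKO. UMIs were summed per gate and library and given as CPM with exact Poisson intervals. Log2 ratios and shares carry exact binomial (Clopper-Pearson) intervals, all at 95%. The members, gene lists and rules were chosen with earlier results of these data known. Named genes were the 8 members, Map4k4, the 3 genes most like each member in pattern (at least 50 CPM in 1 sum; 1 of these genes is not reported here) and pathway genes with at least 50 CPM in a neutrophil gate. Alternatives were other depth and mitochondrial limits, gates, scalings, thinning, bins of like depth and call limits. The second maturation order with its bins and the cells without lymphoid marker UMIs were chosen after seeing the data. The routines were tested on simulated data. Tools were Python 3.11.15, numpy 2.4.6, scipy 1.17.1 and matplotlib 3.10.9. RefSeq promoters (GRCm38.p6) and GENCODE gene models (GRCm38) match the build of the files.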

Additional observations from a re-analysis of the deposited data

Results flagged for a closer look

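Some annexins differed between the libraries in opposite directions in different gates, with each counting interval on its own side of 0. Whether the effects themselves differ was not tested, since there was 1 library per genotype. On the log2 scale of cKO over Ctrl CPM, Anxa1 was at 0.57 in ProNeu-like and -0.30 in MEP-like cells. Anxa2 was at 0.46 in ProMon-like and -0.47 in MEP-like cells. Anxa3 was at 0.16 in non-cycling imNeu-like and -1.91 in MEP-like cells, the latter from 89 and 9 UMIs. Anxa5 was at 0.17 in ProMon-like and -0.75 in MEP-like cells, the latter from 110 and 25 UMIs. Relative to the median gene these pairs were at 0.86 and -0.14, 0.66 and -0.31, 0.58 and -1.76, and 0.37 and -0.59. The MEP-like CPM intervals of Anxa1, Anxa2 and Anxa5 ended at -0.07, -0.08 and -0.11, above the MEP-like median of -0.16. Relative to that median these intervals therefore hold 0, and of the genes named here only Anxa3 meets the rule. The MEP-like Anxa1 levels of 89.5 and 72.8 CPM were the lowest of all gates of at least 50 cells in each library. The MEP-like gate held 410 cells in Ctrl and 84 in cKO, with median depths of 15038 and 29698 UMIs.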

How the results depend on the processing

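No paired analysis was possible because each genotype had 1 library. Of 56 gate and gene pairs, 0 were past 1.5-fold upward in cKO. That count became 10 with median-of-ratios scaling, 1 with a denominator without mitochondrial, ribosomal, haemoglobin, immunoglobulin and marker genes, 2 with the mean of per-cell proportions, 4 with cells thinned to 1000 UMIs, 3 with depth bins weighted equally and 3 in cells without B, ProB or T/NK marker UMIs (added after seeing the data). The 9 pairs lower in cKO became 4 at 2-fold and 14 in those marker-free cells. Of the alternatives for fold calls, only median-of-ratios scaling between the libraries had its share over all genes computed (given above). The other counts here, also those for the step to mNeu-like cells, therefore cannot be set against all genes. Floors of 500 and 2000 UMIs, a 10% mitochondrial ceiling, stricter gates, reassignment of cells by likelihood, and minimums of 50 or no UMIs left both counts within 1.5 times. Thinning turned Anxa3 in HSC/MPP-like cells to 0.43, Anxa6 in cycling imNeu-like cells to 1.08 and Anxa4 in non-cycling imNeu-like cells to 0.12 on the log2 scale. After thinning these rested on few cells with a UMI in Ctrl and cKO: 24 and 6, 6 and 10, and 6 and 6. Anxa6 in cycling imNeu-like cells also turned with per-cell proportions (0.30) and with depth bins (0.19), but was lower in cKO in the bins from 8000 and 16000 UMIs. The cause was not tested. In the step to mNeu-like cells the 2 annexins higher in Ctrl became 1 with the reduced denominator, 1 with thinning and 1 at 2-fold, and the 1 higher in cKO became 2 with thinning. Without thinning, pairs with shares apart went from 6 to 21 (higher) and from 3 to 6 (lower), against 22.5% and 5.99% of pairs over all genes. The Anxa1 peak over the last maturation bin was 2.39-fold in Ctrl and 3.27-fold in cKO, 1.91 and 2.27 with 5 bins, and 3.07 and 3.57 in the second order. The Anxa2 maximum over the first bin was 6.34-fold and 5.92-fold, 6.22 in cKO with 5 bins, and 20.7 and 17.9 in the second order. Of the 24 genes most similar in pattern, 15 stayed with a pseudocount of 1 CPM. Depth limits Anxa4 and Anxa6 in neutrophils most, with under 100 UMIs per imNeu-like or mNeu-like sum.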
